A study of Mus musculus with 10 samples.

Results

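The genes described here are the mouse genes whose symbol begins with Ube2, which are mainly the E2 ubiquitin-conjugating enzymes. A probe of the array was taken as a member when its RefSeq accession belonged to such a gene. This gave 39 of the 23462 genes that could be named on the array, read by 66 probes. Total RNA from the hippocampus of mice labelled male and 12 weeks old was hybridised to 1-colour Agilent arrays, with 5 arrays for PGC-1αf/f mice and 5 for nPGC-1α mice. Mice of both groups carried a PGC-1α transgene at the Rosa26 locus behind a floxed PGK-neo-STOP cassette, which keeps it silent. The nPGC-1α mice also carried Cre under the neuronal Eno2 promoter, which removes the cassette in neurons. The arrays asked how hippocampal gene expression differs between these genotypes without surgery. The labels do not say that each array came from a separate mouse, so the p-values measure the spread between these arrays, which may be partly technical.

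Ubiquitin reaches its target through a relay of enzymes. An E1 enzyme activates ubiquitin, an E2 enzyme carries it as a thioester on a cysteine, and an E3 ligase brings the loaded E2 to the substrate. The E2 often decides which kind of ubiquitin chain is built, and so whether a protein goes to the proteasome or is only marked for signalling or repair. Separate E2s carry ubiquitin-like proteins such as NEDD8 and ISG15. Neurons depend on this system to remodel synapses and clear damaged proteins, while a few E2s serve mainly dividing cells.

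Several features of the arrays bear on every value below. Levels are log2 signals relative to the 75th percentile of the array, so that a level of 0 equals that percentile, and a positive difference means a higher level in nPGC-1α mice. The additive noise estimated by the scanner software ran from 5.16 to 8.98 signal units in the PGC-1αf/f group and from 10.7 to 20.9 in the nPGC-1α group, and 74.5% to 81.5% of gene spots against 67.2% to 73.4% were well above background. Slide 1 held replicates 1 to 4 of each group, and slide 2 held the fifth. The layout of slide 1 split the genotypes by row, with PGC-1αf/f in row 1 and nPGC-1α in row 2. Differences within slide 1 therefore do not separate genotype from row, and the part of row was not tested. Both arrays of slide 2 lay in row 1. Replicate 1 of each group had the most spots marked as outliers (10.5% and 11.6%), and these were left out. Transcripts of the Y chromosome were present on 1 PGC-1αf/f array and 3 nPGC-1α arrays, which goes against the label of male for the other 6. Ppargc1a, the gene of PGC-1α, had a mean level of 2.20 in each group, with an SD of 0.08 among PGC-1αf/f arrays and of 0.11 among nPGC-1α arrays (difference 0.00, SE 0.09, limma adjusted p = 0.99). Whether its probe reads the transgene is not given in the sources used here, so this does not check the labels. Although the labels give neuron as the cell type, markers of astrocytes and oligodendrocytes (6 of 6 each) and 5 microglial markers were well above background on all arrays. In such tissue RNA, fewer cells of a type and less RNA per cell cannot be told apart.

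Of the 39 genes, 33 could be tested, and all 33 were well above background on all 10 arrays. No member passed a limma adjusted p of 0.05, a threshold passed by 0.00568% of all 17597 named genes tested. At an unadjusted limma p of 0.05, 1 member was higher in nPGC-1α mice, Ube2c, against 3.18% of all named genes. At the same threshold 0 members were lower, against 5.03% of all named genes. An exact Mann-Whitney test at that threshold also gave 1 higher and 0 lower. A share of 1 in 33 lies near that background, and it is no result about the members as a group. By the brightest tested probe 13 members had a difference above 0 and 20 below 0, with a median of -0.03 against -0.02 over all named genes. With the mean of a gene's tested probes these medians were 0.07 and -0.01.

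The differences of the members ran from -0.22 for Ube2q2 to 0.83 for Ube2c, and 27 of the 33 were smaller than 0.2 in size. The 95% interval lay within a 1.5-fold change in either direction for 30 members and within a 2-fold change for 32. The exceptions to the narrower limit were Ube2c, Ube2h and Ube2ql1, and the exception to the wider limit was Ube2c. By the brightest tested probe, in no member were the arrays of one group wholly above those of the other. A second probe of Ube2b, with 3 values per group, ran from 2.61 to 2.71 in PGC-1αf/f mice and from 2.38 to 2.59 in nPGC-1α mice. Its difference was -0.18 (SE 0.12, limma adjusted p = 0.60). The share of all named genes without overlap was not counted. The spread between the arrays of a group was small, with a median SD of 0.13 and a range of 0.03 to 0.62, the largest being that of Ube2c in nPGC-1α mice.

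**Figure D1:**
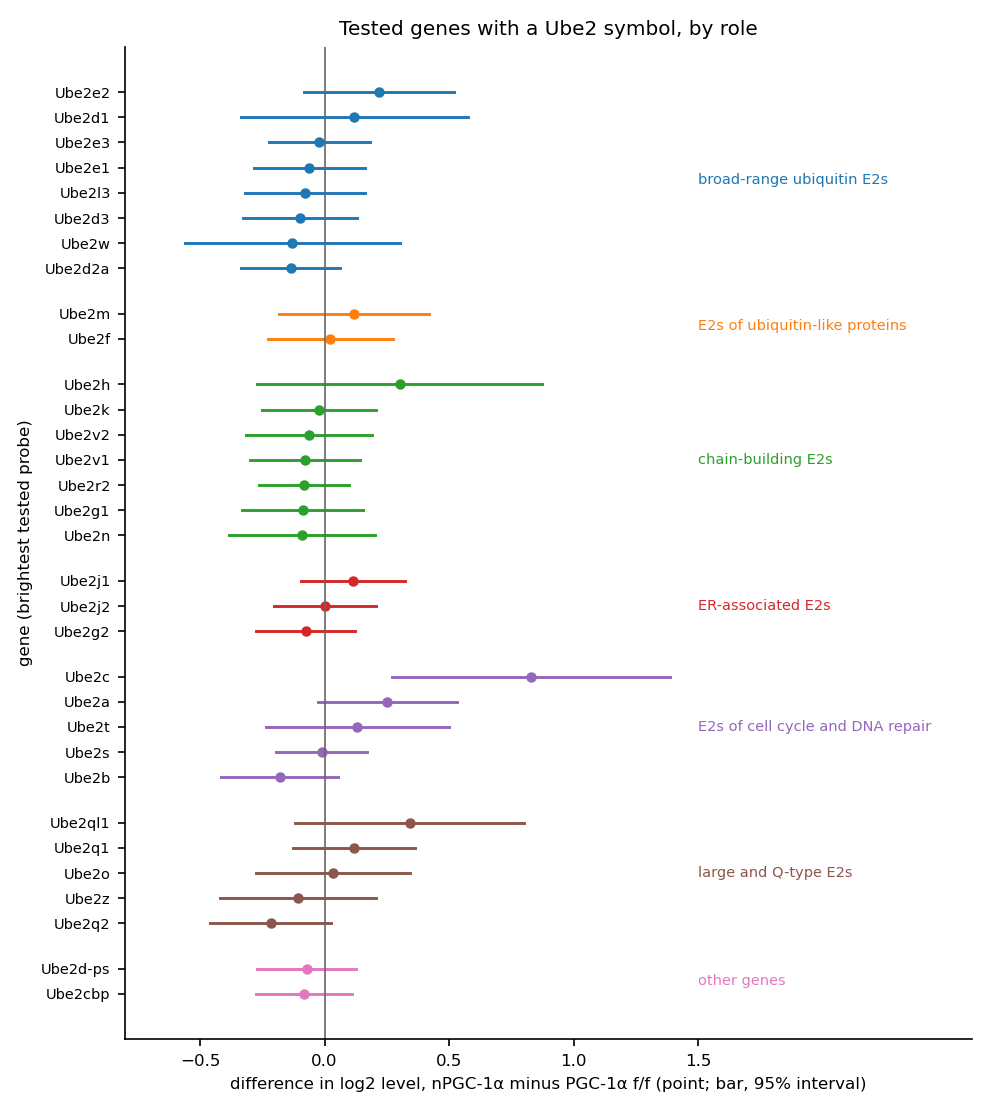
Difference in log2 level between nPGC-1α and PGC-1αf/f arrays for 32 of the 33 tested genes, grouped by role; points are differences and bars their 95% intervals from limma. The intervals of all genes shown but Ube2c (0.27 to 1.39) include 0.

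The E2s of cell cycle and DNA repair comprised 5 genes, all tested, with a median difference of 0.13. Ube2c, which starts ubiquitin chains on substrates of the anaphase-promoting complex in mitosis, had the largest difference of all members. Its level was -4.20, -4.61, -4.42, -4.58 and -4.39 on PGC-1αf/f replicates 1 to 5. On nPGC-1α replicates 1 to 5 it was -4.36, -4.13, -2.88, -3.33 and -3.34. Replicates 2, 3, 4 and 5 of the nPGC-1α group stood above every PGC-1αf/f array, the second by a small margin, and replicate 1 lay among them. The difference was 0.83 (SE 0.25, 95% interval 0.27 to 1.39, n = 5 and 5, limma adjusted p = 0.25), a 1.78-fold higher signal that did not pass the adjusted threshold. All 5 nPGC-1α arrays lay above the PGC-1αf/f mean, and the difference was 0.77 within slide 1 and 1.06 within slide 2, which holds 1 array per group. With the presence of Y-linked transcripts as a covariate it was 0.73.

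The other E2s of this role differed less than Ube2c. Ube2s, which extends the chains that Ube2c begins, had a difference of -0.01 (95% interval -0.19 to 0.17). Ube2t, the E2 of the Fanconi anaemia repair pathway, had a difference of 0.13 (95% interval -0.24 to 0.50). Its level was -5.17, -5.06, -4.54, -4.70 and -4.74 on nPGC-1α replicates 1 to 5 and -5.50, -4.85, -4.92, -4.76 and -4.82 on the PGC-1αf/f replicates, so that nPGC-1α replicates 3, 4 and 5 were its highest arrays too. Of the 33 tested members, Ube2c and Ube2t were the 2 with this order, Ube2t by a small margin (-4.74 against -4.76). The 3 arrays were singled out after the levels of Ube2c were seen, and the share of all named genes with this order was not counted. Ube2a and Ube2b are close relatives of yeast Rad6 that work with Rad18 on stalled replication forks and with Rnf20 and Rnf40 on histone H2B. Their differences were 0.25 (SE 0.13, limma adjusted p = 0.46) for Ube2a and -0.18 (SE 0.11, limma adjusted p = 0.53) for Ube2b. The Ube2a arrays of the nPGC-1α group spanned 0.37 to 0.52, whereas PGC-1αf/f replicates 1, 2 and 5 lay between -0.05 and 0.04 and replicates 3 and 4 at 0.42 and 0.52.

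Genes of proliferating cells were set beside Ube2c, because it belongs to the same mitotic programme. Of 14 listed genes 13 were tested: 11 had a difference above 0, with a median of 0.18, 2 were higher at an unadjusted p of 0.05, 0 were lower, and 0 passed the adjusted threshold. Over all 17597 named genes tested, 7626 had a difference above 0, with a median of -0.02. At an unadjusted limma p of 0.05, 3.18% of all named genes were higher and 5.03% lower. The called genes of the list were Top2a, the topoisomerase that untangles chromosomes, with a difference of 0.84 (SE 0.35, limma adjusted p = 0.39), and Cenpa, the centromeric histone, with 0.61 (SE 0.21, limma adjusted p = 0.30). Top2a was at -3.48, -3.71 and -3.57 on nPGC-1α replicates 3, 4 and 5 and at -5.45 and -4.75 on replicates 1 and 2. Its PGC-1αf/f arrays lay between -5.35 and -4.66. Thus Top2a was high on the same 3 arrays as Ube2c. These arrays were singled out because Ube2c was high on them, so genes that match them are described only. Cenpa was not, since its highest level, -2.33, was on nPGC-1α replicate 1. In total 4 of the 13 genes, Top2a, Ccnb1, Bub1 and Mki67, were above every PGC-1αf/f array on nPGC-1α replicates 3, 4 and 5. The share of all named genes with this order was not counted, so the count does not set this list apart. The differences of the last 3 were 0.53 for Ccnb1 (SE 0.25), 0.44 for Bub1 (SE 0.33) and 0.31 for Mki67 (SE 0.20). Their limma adjusted p was 0.44, 0.62 and 0.56 in that order. Bub1 was dim, at -7.34 and -6.44 on nPGC-1α replicates 1 and 2. The lowest level called well above background there was -6.07 and -6.39, so its difference includes undetected values. Detection on every array held for 11 of the 14 listed genes. Other genes of the list had differences nearer to 0, such as 0.01 for Ccna2, 0.08 for Plk1 and -0.09 for Aurkb.

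Markers of another cell type were also high on these arrays. The oligodendrocyte gene Mog was at 1.09, 0.94 and 0.65 on nPGC-1α replicates 3, 4 and 5 and at -0.42 and 0.13 on replicates 1 and 2, against -0.46 to 0.18 on the PGC-1αf/f arrays. On those 3 arrays 4 of the 6 oligodendrocyte markers were above every PGC-1αf/f array, again without a count over all named genes. Over the 6 oligodendrocyte markers, all well above background, 5 had a difference above 0. Their median was 0.29, against -0.02 over all named genes. At an unadjusted limma p of 0.05, 0 of the markers were higher or lower. Their median deviation from the mean of all arrays ran from -0.61 to 0.04 on PGC-1αf/f arrays and from -0.34 to 0.41 on nPGC-1α arrays. Choroid plexus markers (7 of 7 detected on all arrays) ran from -0.96 to 1.83 and from -0.85 to 2.45, with the highest value on nPGC-1α replicate 3. Their part in the Ube2c difference was not tested.

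**Figure D2:**
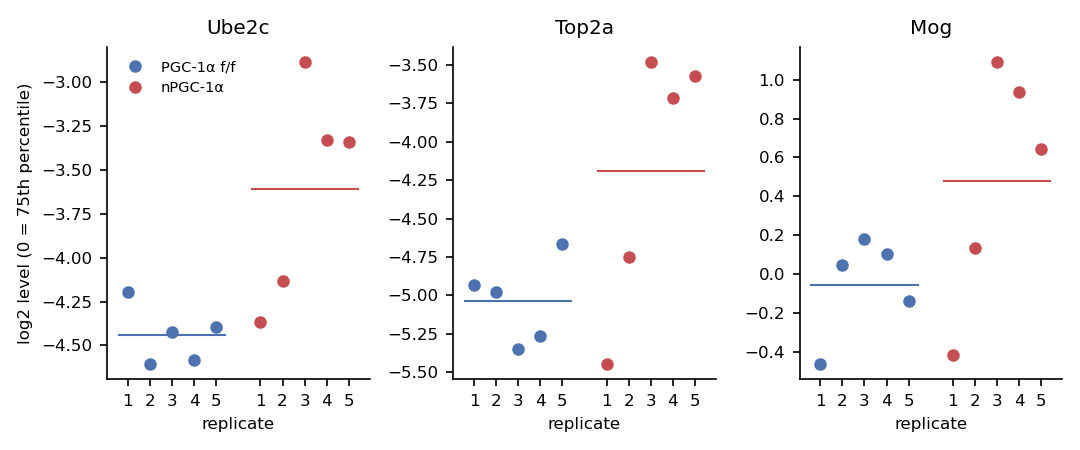
Log2 level of Ube2c, of the proliferation gene Top2a and of the oligodendrocyte gene Mog on each array, by group and replicate; lines are group means. Replicates 3, 4 and 5 of the nPGC-1α group are the highest arrays for all 3 genes. These arrays were singled out because Ube2c was high on them.

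The promoters of these genes are shown because CCAAT boxes and the cell cycle homology region, CHR, are known elements of mitotic genes. The sequences are from RefSeq on GRCm38.p6 and hold 250 bases before the start of transcription and 50 from it, 5′ to 3′ on the strand of the gene. They lie at chr2:164769679-164769978 (plus strand) for Ube2c, chr11:99024140-99024439 (minus strand) for Top2a, chr5:30666636-30666935 (plus strand) for Cenpa, chr1:134962315-134962614 (plus strand) for Ube2t and chr7:4812291-4812590 (minus strand) for Ube2s. Capitals mark CCAAT or its complement ATTGG and TTTGAA or its complement TTCAAA.
Ube2c: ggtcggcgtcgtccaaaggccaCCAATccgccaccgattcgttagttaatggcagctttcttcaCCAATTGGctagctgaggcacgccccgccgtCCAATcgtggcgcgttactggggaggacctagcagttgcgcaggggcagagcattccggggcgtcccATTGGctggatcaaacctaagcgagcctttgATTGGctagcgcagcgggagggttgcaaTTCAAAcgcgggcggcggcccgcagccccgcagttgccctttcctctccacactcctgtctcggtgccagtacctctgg
Top2a: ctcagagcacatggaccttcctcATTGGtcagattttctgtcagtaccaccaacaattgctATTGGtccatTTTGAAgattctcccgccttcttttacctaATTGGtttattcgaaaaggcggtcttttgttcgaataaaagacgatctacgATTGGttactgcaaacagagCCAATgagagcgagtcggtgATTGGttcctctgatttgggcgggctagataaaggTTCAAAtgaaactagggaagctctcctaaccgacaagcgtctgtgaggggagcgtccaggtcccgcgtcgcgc
Cenpa: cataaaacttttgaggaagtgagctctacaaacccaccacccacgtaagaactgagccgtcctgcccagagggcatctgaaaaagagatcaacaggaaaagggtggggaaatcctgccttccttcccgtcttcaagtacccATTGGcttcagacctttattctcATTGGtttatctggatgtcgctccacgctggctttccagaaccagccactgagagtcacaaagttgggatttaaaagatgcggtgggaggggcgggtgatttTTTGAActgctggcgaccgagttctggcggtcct
Ube2t: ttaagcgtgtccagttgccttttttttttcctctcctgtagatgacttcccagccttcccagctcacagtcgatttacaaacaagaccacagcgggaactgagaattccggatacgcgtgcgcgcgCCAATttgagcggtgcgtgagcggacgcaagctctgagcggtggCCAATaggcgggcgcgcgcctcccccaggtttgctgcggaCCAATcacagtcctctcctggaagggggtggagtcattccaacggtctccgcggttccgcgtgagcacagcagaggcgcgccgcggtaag
Ube2s: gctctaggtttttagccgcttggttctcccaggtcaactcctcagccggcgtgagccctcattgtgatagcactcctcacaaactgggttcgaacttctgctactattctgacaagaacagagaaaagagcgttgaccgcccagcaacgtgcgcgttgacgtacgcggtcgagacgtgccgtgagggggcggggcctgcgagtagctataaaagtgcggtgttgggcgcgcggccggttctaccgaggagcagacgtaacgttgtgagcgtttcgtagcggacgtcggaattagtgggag

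The promoter of Ube2c held CCAAT 6 times on either strand, of which a pair overlaps, and 1 TTCAAA that begins 29 bases before the start. That of Top2a held 6 and 2 matches, that of Cenpa 2 and 1, that of Ube2t 3 and 0, and that of Ube2s none of either. CCAAT occurred at least once in 37.4% of all 32851 promoters and 6 times or more in 0.0791% of them, and TTTGAA occurred in 17.9%. Of the tested members, 26 had a promoter in the table, 37 promoters in all, of which 16.2% held CCAAT and 8.11% TTTGAA. The letters AAGGTCA, bound by the oestrogen-related receptors that PGC-1α is known to coactivate, was in 2.70% of them, a single promoter of Ube2f, and in 4.72% of all promoters. The promoters of tested members were rich in G and C, with a median of 70.0% against 52.7% over all promoters. For the 6 promoters of untested members the median was 50.2%. The promoters of all tested genes were not summarised, so the trait is not shown to be particular to the members. A match describes letters only and is no measurement of binding.

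The broad-range ubiquitin E2s serve many E3 ligases, and 8 of the 11 were tested. At an unadjusted limma p of 0.05, 0 were higher and 0 lower, and their median difference was -0.07. The largest difference was that of Ube2e2, an E2 with an extended amino terminus. Its level was 1.81, 2.13, 1.94, 2.02 and 1.37 on PGC-1αf/f replicates 1 to 5 and 2.18, 2.17, 2.04, 1.92 and 2.07 on nPGC-1α replicates 1 to 5. Apart from the low replicate 5 of the PGC-1αf/f group the groups overlapped, and the difference of 0.22 (SE 0.14, n = 5 and 5, limma adjusted p = 0.55) fell to 0.10 within slide 1.

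The D family, the E2s most often paired with RING ligases, differed little. Ube2d1 had a difference of 0.12 (95% interval -0.34 to 0.58), Ube2d2a of -0.14 (95% interval -0.33 to 0.06) and Ube2d3 of -0.10 (95% interval -0.33 to 0.13). For the brightest probe of Ube2d2a all 5 nPGC-1α arrays lay below the PGC-1αf/f mean, with overlap of the groups. Its other tested probes had the opposite sign, with differences of 0.20 (95% interval -0.30 to 0.70) and 0.10 (95% interval -0.14 to 0.33). Ube2l3, which works with HECT ligases and with RBR ligases such as parkin, had a difference of -0.08 (95% interval -0.32 to 0.16). Ube2w, which modifies the amino terminus of its substrates, had a difference of -0.13 with a wide interval of -0.56 to 0.30, since outlier marks left 3 arrays per group. Ube2e1 and Ube2e3 had differences of -0.06 and -0.02.

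Among the E2s of ubiquitin-like proteins, 3 of 4 were tested, 0 were higher or lower at an unadjusted limma p of 0.05, and the median difference was 0.02. Ube2m loads NEDD8 onto cullins and had the largest difference. Its level was 0.98, 0.87, 1.07, 1.08 and 0.61 on the PGC-1αf/f replicates and 1.24, 1.02, 1.22, 1.06 and 0.65 on the nPGC-1α replicates. In both groups replicate 5, on slide 2, was the lowest, and the groups overlapped. The difference was 0.12 (SE 0.14, n = 5 and 5, limma adjusted p = 0.75), and it was 0.04 without PGC-1αf/f replicate 5 and 0.22 without nPGC-1α replicate 5. Ube2f, the second NEDD8 E2, had a difference of 0.02 (95% interval -0.23 to 0.27).

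Ube2l6, the interferon-induced E2 of ISG15, was well above background on all arrays but was not tested, because its spot was marked as an outlier on 6 of them. With those spots kept its level was -0.67, -0.61, -0.72, -0.70 and -0.39 on the PGC-1αf/f replicates and -0.51, -0.44, -0.78, -0.62 and -0.77 on the nPGC-1α replicates, a difference of -0.00. The groups covered the same range. Of 11 tested interferon-stimulated genes, 1 had a difference above 0, the median was -0.27 and 0 were called in either direction at an unadjusted limma p of 0.05. These genes stood out on single arrays: their median deviation was 1.20 on PGC-1αf/f replicate 2 and at most 0.24 on the other arrays. It was lowest on the arrays of slide 2, at -0.75 and -0.65 for the PGC-1αf/f and nPGC-1α groups. Ube2l6 on PGC-1αf/f replicate 2 was at the middle of its own range. Uba7, the E1 of ISG15, had a difference of -0.28 (SE 0.18, limma adjusted p = 0.57).

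The chain-building E2s comprised 7 genes, all tested, and their median difference was -0.08 with 0 higher and 0 lower at an unadjusted limma p of 0.05. Apart from Ube2h their differences by the brightest tested probe were all between -0.09 and -0.02. Dimmer tested probes gave 0.28 for Ube2g1 (SE 0.18) and 0.28 for Ube2v1 (SE 0.16). Those of Ube2n and Ube2v2 gave -0.00 (SE 0.09) and -0.17 (SE 0.11), and the probes of Ube2k are given below. Ube2n, which builds signalling chains together with Ube2v1 or Ube2v2, had a difference of -0.09. Ube2v1 and Ube2v2, which lack the catalytic cysteine, had differences of -0.08 and -0.06. Ube2r2, a partner of cullin-RING ligases, and Ube2g1 had differences of -0.08 and -0.09.

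Ube2h, the E2 of the CTLH ligase complex, was at -1.91, -0.96, -0.54, -0.60 and -0.84 on the PGC-1αf/f replicates. It was at -0.60, -0.52, -0.58 and -0.96 on nPGC-1α replicates 2 to 5, the spot of replicate 1 being marked as an outlier. Only PGC-1αf/f replicate 1 stood apart. The difference was 0.30 (SE 0.26, n = 5 and 4, limma adjusted p = 0.66), and it fell to 0.07 without that array.

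Ube2k, which can build degradation chains by itself, was read by 3 probes that gave unlike differences. Its brightest probe was at 2.82, 2.72, 2.84, 3.05 and 2.73 on the PGC-1αf/f replicates and at 2.75, 2.69, 2.86 and 2.94 on nPGC-1α replicates 2 to 5, a difference of -0.02 (95% interval -0.25 to 0.21). A dimmer probe was at -2.04, -1.71, -1.58, -1.39 and -1.94 on the PGC-1αf/f replicates and at -1.41, -1.16, -1.27, -1.25 and -1.33 on the nPGC-1α replicates. For this probe 4 of the 5 nPGC-1α arrays lay above all PGC-1αf/f arrays, and the difference was 0.45 (SE 0.13, n = 5 and 5, limma adjusted p = 0.22). The third probe gave 0.04 (95% interval -0.16 to 0.23).

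**Figure D3:**
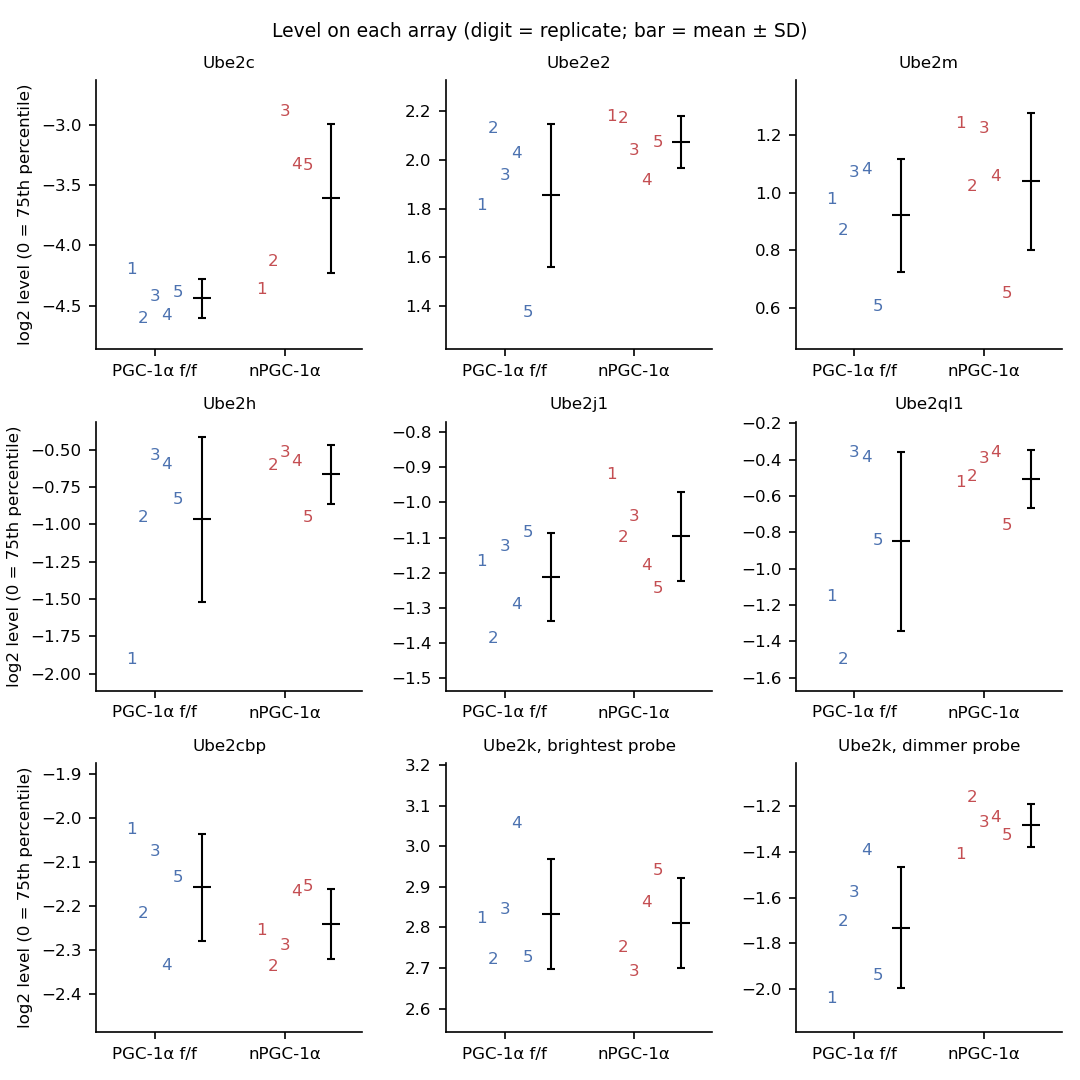
Log2 level on each array for 7 members and for 2 probes of Ube2k; each digit is a replicate, and the black bars are the mean and SD of the group. Ube2c and the dimmer Ube2k probe show the clearest separation, with overlap in both.

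The ER-associated E2s act in the removal of misfolded proteins from the endoplasmic reticulum. All 3 were tested, 0 were higher or lower at an unadjusted limma p of 0.05, and their median difference was 0.00. Ube2j1, an E2 anchored in the membrane, was at -1.17, -1.39, -1.12, -1.29 and -1.09 on the PGC-1αf/f replicates and at -0.92, -1.10, -1.04, -1.18 and -1.25 on the nPGC-1α replicates. The groups overlapped, and the difference was 0.11 (SE 0.10, n = 5 and 5, limma adjusted p = 0.66). Its relative Ube2j2 had a difference of 0.00 (95% interval -0.20 to 0.21), and Ube2g2, which serves ligases of the same pathway, had a difference of -0.08 (95% interval -0.27 to 0.12).

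The large and Q-type E2s carry long extensions beside the catalytic fold, and all 5 were tested with a median difference of 0.03 and 0 higher or lower at an unadjusted limma p of 0.05. Ube2ql1 had the largest difference. It was at -1.15, -1.50, -0.36, -0.39 and -0.85 on the PGC-1αf/f replicates and at -0.52, -0.49, -0.40, -0.36 and -0.76 on the nPGC-1α replicates. PGC-1αf/f replicates 1 and 2 were low, and replicates 3 and 4 matched the nPGC-1α arrays. The difference was 0.34 (SE 0.21, n = 5 and 5, limma adjusted p = 0.54), and all 5 nPGC-1α arrays lay above the PGC-1αf/f mean. It was 0.18 without PGC-1αf/f replicate 2 and 0.46 without replicate 3 or 4 of that group.

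Ube2q2 had the lowest difference of all members, -0.22 (SE 0.11, 95% interval -0.46 to 0.03, n = 4 and 4, limma adjusted p = 0.47). Its PGC-1αf/f replicates 2 to 5 were at 1.13, 0.77, 1.01 and 0.92, and its nPGC-1α replicates 2 to 5 were at 0.72, 0.83, 0.74 and 0.67. All 4 nPGC-1α values lay below the PGC-1αf/f mean, and those of replicate 3 crossed between the groups. Ube2q1 had a difference of 0.12. Ube2o, which combines E2 and E3 activity in a single protein, had a difference of 0.03, and Ube2z, which takes ubiquitin from the E1 Uba6, had a difference of -0.11. Uba6 itself had a difference of -0.19 (SE 0.14, limma adjusted p = 0.62).

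The remaining genes share the symbol and not the enzyme. Ube2cbp encodes an E3 that binds Ube2c, and was at -2.02, -2.22, -2.08, -2.33 and -2.13 on the PGC-1αf/f replicates and at -2.25, -2.34, -2.29, -2.17 and -2.15 on the nPGC-1α replicates. The groups overlapped throughout, and the difference was -0.08 (SE 0.09, n = 5 and 5, limma adjusted p = 0.72). The non-coding Ube2d-ps had a difference of -0.07. It resembles the D family in sequence, so its signal may be shared with those genes.

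The 6 genes that were not tested include Ube2l6. Ube2d2b, Ube2dnl1 and the antisense RNA Ube2uos were well above background on 0 of 10 arrays. In the PGC-1αf/f group Ube2dnl2 was well above background on 4 arrays and Ube2u on 3, and neither was so on any nPGC-1α array. The noisier nPGC-1α arrays detected a probe down to a level of -6.26 on average. The PGC-1αf/f means of Ube2dnl2 (-7.19) and Ube2u (-7.45) lay under that limit, so no fold is given. On single arrays, Ube2u on PGC-1αf/f replicates 2 and 3 (-6.53 and -6.59) lay just above the limit of nPGC-1α replicate 4 (-6.62).

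Several probes of a gene allow the direction of a difference to be checked. The 20 members with more than 1 tested probe had 24 further, dimmer probes. Of these, 19 (79.2%) gave a higher difference than the brightest probe of the gene, and 13 (54.2%) had the opposite sign. Over all named genes with several tested probes, 63.8% of 7426 dimmer probes gave a higher difference and 41.5% had the opposite sign. The gap between a dimmer probe and the brightest ran from -0.28 to 0.49 among the members with a median of 0.12, against a median of 0.07 over all. The widest gaps were those of Ube2f, whose other probe had a difference of 0.51 (95% interval -0.52 to 1.55), and of Ube2k. In the opposite direction, the other probe of Ube2q2 had a difference of -0.50 (95% interval -1.13 to 0.14). Background noise, which was higher on the nPGC-1α arrays, bears most on dim probes, and its part in these gaps was not tested.

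**Figure D4:**
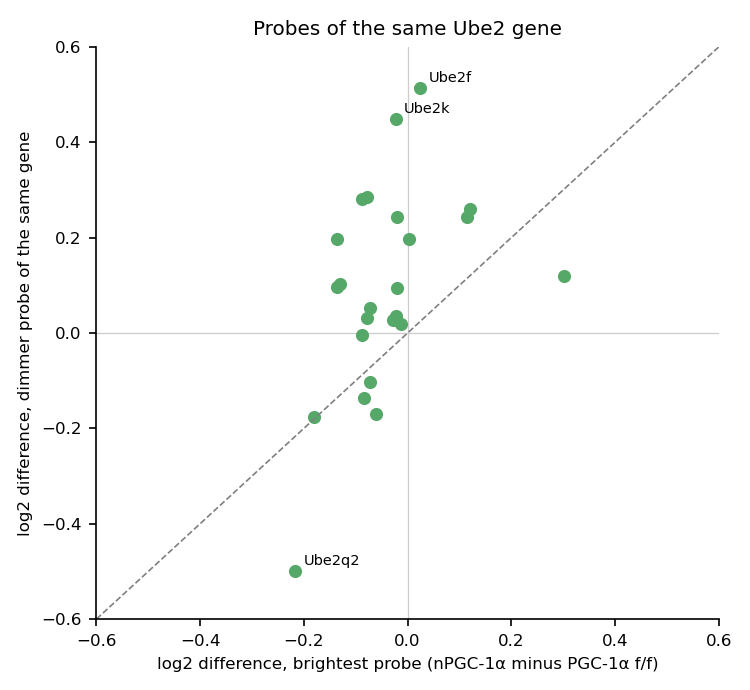
Difference of each dimmer tested probe of a member against that of the brightest tested probe of the same gene, both as log2 nPGC-1α minus PGC-1αf/f; the dashed line marks equal differences. Of the 24 points 19 lie above the line.

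The enzymes before and after the E2s in the relay were described by lists of genes, and no gene of these lists passed the adjusted threshold. Of 10 E1 activating enzymes and of 12 tested ubiquitin and ubiquitin-like modifiers, 0 were higher or lower at an unadjusted limma p of 0.05, with median differences of -0.07 and -0.10. The same held for 5 E2 enzymes named otherwise, such as Cdc34 (difference -0.05), and for 31 proteasome subunits, with medians of 0.02 and -0.07. Among 14 deubiquitinases 1 was higher, against 3.18% of all named genes. This was Bap1, with a difference of 0.29 (SE 0.11, limma adjusted p = 0.33).

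Of 50 tested RING and cullin E3 ligases, the partners of the D and chain-building E2s, 1 was higher and 2 were lower at an unadjusted limma p of 0.05, and the median difference was -0.03. Over all named genes 3.18% were higher and 5.03% lower, a background that holds for each list of this paragraph. Counts this small are no result about a list. Siah2 was higher by 0.31 (SE 0.12, limma adjusted p = 0.35). The F-box protein Skp2 had a difference of -0.29 (SE 0.12, limma adjusted p = 0.38), and Rad18, the partner of Ube2a and Ube2b, of -0.62 (SE 0.18, limma adjusted p = 0.23). Of 24 HECT and RBR ligases 1 was lower, Smurf2 with a difference of -0.46 (SE 0.16, limma adjusted p = 0.30). Of the 14 genes of the anaphase-promoting complex, which Ube2c and Ube2s serve, 1 was lower, the subunit gene Cdc27 with a difference of -0.56 (SE 0.13, limma adjusted p = 0.14). The median over that complex was -0.07.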

How the data were processed

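Spot intensities were taken from the deposited scanner files, which Feature Extraction 11.5.1.1 had corrected for background but not normalised between arrays. The authors also deposited log2 values for 41606 probes made from the same arrays with GeneSpring, whose centring is not stated, and these served as an alternative. Here, log2 processed intensities were averaged over the spots of a probe without outlier marks, and the log2 75th percentile of the array (3882.9 to 5253.2) was subtracted. A probe was tested if at least 1 group had it well above background on its 5 arrays and if each group had at least 3 values. limma 3.58.1 (lmFit, eBayes, two-sided, no covariates) was used, with Benjamini-Hochberg adjustment over all 39142 probes. The number of arrays limits the precision. A RefSeq table of GRCm38.p6 gave symbols for 33767 of 56605 probes, and the brightest tested probe stood for a gene (for Ube2r2 a brighter probe had too few values). Per-array values were to be given for members with an unadjusted p under 0.05 and for the largest difference of each role. Ube2a, Ube2q2, Ube2t, Mog, Bub1, Mki67, Ccna2, Plk1, Aurkb, the counts over nPGC-1α replicates 3 to 5, the other probes of Ube2f and Ube2q2, the promoters and the motifs were added after values were seen. The values of 1 member and of 1 gene list are not reported here. The members, lists and tests were chosen with earlier results of these data known. A simulation of the comparison over 34000 probes recovered 69.5% of log2 changes of 1 and made 0 calls with none changed. Alternatives were other scalings, background corrections (normexp used median pixel intensities, offset 50), filters, blocks, covariates and variance models, the mean of a gene's probes, and leaving out each array. R 4.3.3, Python 3.11.15 and pandas 2.3.3 were used.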

Additional observations from a re-analysis of the deposited data

Results flagged for a closer look

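Of 62 groups of 4 or 5 values of the tested members, 3 held an array far from the others by Dixon's criterion, where chance alone gives about 3.1. The level of Ube2d1 was -1.09 on nPGC-1α replicate 3, against -0.81 to -0.77 on the other arrays of the group. The level of Ube2s was 3.07 on nPGC-1α replicate 1, against 2.84 to 2.89. The level of Ube2t was -5.50 on PGC-1αf/f replicate 1, against -4.92 to -4.76.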

How the results depend on the processing

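Ube2c was higher at an unadjusted p of 0.05 in 27 of 27 alternatives, with a difference of 0.64 to 1.08 and a limma adjusted p of 0.0917 to 0.516 over the 26 that give one. The differences of the 7 members drawn by array and of the dimmer Ube2k probe kept their sign. Members with differences near 0 could change sign. For example, Ube2j2 went from 0.00 to -0.01 within slide 1, and the median over the members went from -0.03 to 0.02 with normexp and quantile normalisation. The sign of several members also depended on the probe. The count of higher members was 2 with normexp and quantile normalisation (Ube2a added), 2 with the Y-linked transcripts as a covariate (Ube2h added), and 3 without the filter on dim probes (Ube2dnl1 and Ube2uos added, both at background). Without that filter 1 of 38 members passed the adjusted threshold, against 1697 of all 23118 named genes. It was not Ube2c, whose limma adjusted p there was 0.0917. At an unadjusted limma p of 0.05, 11.4% of all named genes were then higher. Leaving out single arrays gave 1 to 3 higher members: 3, with Ube2a and Ube2ql1, without PGC-1αf/f replicate 3 or 4. The count of lower members was 1 with values raised to one floor, with the trend and robust variance model and with the mean of a gene's probes (Ube2q2), and 1 on slide 1 alone (Ube2b). It was 0 to 1 without single arrays: 1 without PGC-1αf/f replicate 3 (Ube2q2) or nPGC-1α replicate 5 (Ube2b). The median difference of the members was 0.074 with the mean of a gene's probes, against -0.009 over all named genes. Without single arrays the median of the members was -0.06 to -0.01. The cause was not tested. Replicate numbers were not taken to pair the arrays, since the labels name no shared source: same-numbered arrays correlated at 0.0776 to 0.356, and 5 of 10 arrays correlated best with their own number, so a shared source is possible. On slide 1 same-numbered arrays also shared a column. With the replicate block 2 members were higher, Ube2a and Ube2c. A member near the detection limit, such as Ube2u, is limited by the noise of the arrays.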
